A study of Macaca mulatta with 5 samples.

Results

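Glycolysis and hypoxia response genes were followed through 5 stages in which embryonic stem cells of the rhesus macaque were steered to become serotonin neurons. The set was a fixed list of 9 genes, matched by symbol to the platform's probe annotation: the glucose transporter gene SLC2A1, the glycolytic genes ALDOA, ALDOC, TPI1, PGK1 and LDHA, and the hypoxia response genes ADM, VEGFA and BNIP3. Of these, 6 had at least 1 probe set annotated to them alone, among 14132 named genes in all. PGK1 was reached only through a probe set that also lists 2 pseudogenes, LOC704249 and LOC697728, and VEGFA and BNIP3 were not analysed here. The members were covered by 12 of 52865 probe sets, 10 of their own and 2 shared with pseudogenes.

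All samples came from cell line 366.4. They comprised ESC (undifferentiated cells of passage 13 kept on mouse embryonic fibroblasts), EB (embryoid bodies of 1 to 1.5 mm, collected after 6 to 8 days), N1 (neurospheres after 7 to 9 days in medium with N2 supplement), N2 (7 to 9 further days with FGF4 added) and N3 (maturation without FGF4 in growth-factor-reduced wells). Total RNA of each stage was labelled with biotin and hybridised to 1 Affymetrix rhesus array, so 5 arrays were measured with no replicate. No difference could be tested or given an error. Whether the 5 stages were taken from the same culture is not given in the sources used here.

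Glycolysis splits glucose into pyruvate in the cytosol. SLC2A1 lets glucose enter, aldolase (ALDOA, ALDOC) cleaves the 6-carbon sugar, TPI1 interconverts the 3-carbon products, PGK1 makes ATP from them, and LDHA turns pyruvate into lactate while restoring NAD+. Pluripotent stem cells and dividing progenitors are known for high glycolysis, and mature neurons for greater reliance on mitochondrial respiration. When oxygen is low, hypoxia-inducible factors (HIF) are stabilised and raise transcription of many glycolytic genes, of SLC2A1 and of signalling genes such as ADM and VEGFA.

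Values are array signals on a linear scale, with each array scaled to a trimmed mean of 500. Signals below 100 were treated as being at a floor, and a gene was taken as measured in a pair of arrays when either reached 100. A gene with several probe sets of its own was represented by the brightest, and counts refer to stages at least 2-fold apart. Of the 12 member probe sets, 11 lay above the floor at all 5 stages. Signals of different probe sets cannot be compared as amounts.

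RNA quality and cell mixture differed between the arrays. The ratio of the 3' to the 5' control probe set of GAPDH, which grows as RNA is degraded or incompletely copied, was 1.94 at ESC, 2.78 at EB, 1.69 at N1, 7.10 at N2 and 2.10 at N3. The same ratio for actin was 1.73 at ESC, 15.2 at EB, 5.43 at N1, 25.2 at N2 and 8.63 at N3, and for the elongation factor EF1A 0.863 at ESC, 0.958 at EB, 0.829 at N1, 1.88 at N2 and 1.06 at N3. N2 was highest on all 3 controls, and on actin every later array also lay well above ESC. The cell mixture also differed between stages: the pluripotency factor POU5F1 had 14.7 in N3 and 28621 in ESC (though NANOG, another such factor, had 2155 in N3 and 1047 in ESC), the neuronal gene DCX 10607 in N3 and 186 in ESC, the fibrinogen gene FGB 71.2 in N3 and 26301 in EB, and the embryonic muscle gene MYH3 14054 in N3 and 38.3 in ESC. TPH2, the enzyme that defines brain serotonin synthesis, was below the floor on every array, with a highest signal of 16.2. Any share of mouse feeder RNA in the ESC array was not measured. In bulk RNA, fewer cells of a type and less RNA per cell cannot be told apart, and the part of these shifts in the results below was not tested.

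SLC2A1, the transporter GLUT1, was the member that stood lowest in stem cells. Its brighter probe set (MmuSTS.3872.1.S1_at) had 4235 at ESC, 13102 at EB, 9599 at N1, 10568 at N2 and 11732 at N3. The 4 differentiating stages lay close together and all well above ESC, by 3.09-fold in EB and 2.77-fold in N3. The dimmer probe set (MmugDNA.42958.1.S1_at) had 32.1 at ESC, 80.8 at EB, 149 at N1, 148 at N2 and 99.1 at N3. It was also lowest in ESC but barely crossed the floor, so that against ESC it gave only bounds, at least 1.49-fold higher in N1 and at least 1.48-fold higher in N2.

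SLC2A3 and SLC16A1, the other transport genes with a 2-fold difference between the ends of the culture, went the opposite way. SLC2A3 (GLUT3), a high-affinity glucose transporter of early embryos and neurons, had 22574 at ESC, 15182 at EB, 7774 at N1, 7074 at N2 and 10837 at N3. It was 2.08-fold lower in N3 than in ESC, and its other 3 probe sets had log2 ratios of -2.34, -1.36 and -0.29 for that comparison. SLC16A1, which exports lactate, was 3.30-fold lower in N3 (1434 in N3 and 4729.9 in ESC), with a log2 ratio of -2.94 on another probe set, and it was at least 19.8-fold lower on one that was below the floor in N3. SLC16A3, the lactate exporter typical of highly glycolytic cells, was 2.21-fold higher in N3 than in N2 (1245 in N3 and 562 in N2). Of its 2 dimmer probe sets, 1 had a log2 ratio of 1.71 for that comparison and the other, below the floor in N2, was at least 1.09-fold higher. For N3 against ESC its brightest probe set had a log2 ratio of 0.46 and the dimmer ones -1.14 and -1.20. SLC2A2, SLC2A4 and SLC16A7 were below the floor at every stage.

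ALDOA, the aldolase of most tissues and of muscle, was highest in stem cells on all 3 of its probe sets. The brightest (MmugDNA.3786.1.S1_s_at) had 20685 at ESC, 12600.0 at EB, 9292 at N1, 13649 at N2 and 14460.3 at N3. The second (MmugDNA.6452.1.S1_s_at) had 13835 at ESC, 4989 at EB, 4998 at N1, 4089 at N2 and 6935 at N3. The third, which also lists the pseudogene LOC706246 (MmugDNA.17911.1.S1_at), had 12432 at ESC, 5526 at EB, 5341 at N1, 4093 at N2 and 7007 at N3. The last 2 probe sets followed each other closely, and they placed the minimum in N2 whereas the brightest placed it in N1. EB was 1.64-fold lower than ESC on the brightest probe set, 2.77-fold lower on the second and 2.25-fold lower on the shared one.

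ALDOC, the aldolase of brain, ended highest in the matured cells. One probe set (MmuSTS.2081.1.S1_at) had 1255 at ESC, 968 at EB, 1914 at N1, 1977 at N2 and 3797 at N3. The other (Mmu.3224.1.S1_at) had 1628 at ESC, 674 at EB, 2067 at N1, 1135 at N2 and 3115 at N3. Both put EB lowest and N3 highest. N3 exceeded ESC by 3.02-fold on the first and 1.91-fold on the second. ALDOC is known in astrocytes and some neurons. The radial glia and astrocyte list had 3 of 5 markers with a probe set, whose summed signal was 1339 at ESC, 1893 at EB, 1791 at N1, 3916 at N2 and 5650.3 at N3. SLC1A3, a glial glutamate transporter, made up most of that difference, with 4452 in N3 and 408 in ESC, while GFAP had 684 in N3 and 911 in ESC. The neuron list had 4 of 5 markers with a probe set, and its summed signal was 47500.2 in N3 and 4881.5 in ESC. The part of either cell type in the ALDOC signal was not tested.

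With the scaling used here, the ALDOA and ALDOC ratios ran in opposite directions between the ends of the culture. For N3 against ESC the log2 ratio was -0.52, -1.0 and -0.83 on the 3 ALDOA probe sets. It was 1.60 and 0.94 on the 2 ALDOC probe sets, with no overlap between the 2 genes. Probe sets read on the same arrays are not replicates, and how often other gene pairs separate likewise was not tested. Both own ALDOA probe sets are marked as binding related transcripts, and the shared probe set also lists a pseudogene. Without the marked probe sets ALDOA had no value for N3 against ESC, and 5 members remained. With quantile normalisation the brightest ALDOA probe set had a log2 ratio of 0, and that of ALDOC 1.60. The -0.52 was also smaller than 0.59, the median disagreement between the 2 brightest probe sets of a gene.

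TPI1 gave a different answer on each of its probe sets. The brighter (Mmu.7032.1.S1_s_at) had 5256 at ESC, 5457 at EB, 5154 at N1, 2406 at N2 and 5661 at N3, so that 4 stages lay close together and N2 stood apart below them. The dimmer (MmugDNA.1092.1.S1_at) had 542 at ESC, 540.1 at EB, 357 at N1, 362 at N2 and 373 at N3. On that probe set N2 did not stand out, and the 3 neural stages lay below ESC and EB.

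The probe set that lists PGK1 with its pseudogenes (MmugDNA.23652.1.S1_at) had 12817 at ESC, 6449.6 at EB, 9738 at N1, 2635 at N2 and 7794 at N3. Its lowest value was also in N2, 3.70-fold below N1. It cannot be assigned to 1 gene and was left out of the counts of genes.

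LDHA varied least. Its single probe set (MmugDNA.32307.1.S1_at) had 17186 at ESC, 13948 at EB, 13696 at N1, 13755 at N2 and 15258 at N3. The highest stage exceeded the lowest by 1.25-fold, against 2.23-fold to 6.98-fold for the brightest probe sets of the other 5 members.

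ADM, which encodes the secreted vasodilator peptide adrenomedullin, had the widest range. Its single probe set (MmugDNA.35794.1.S1_at) had 2541 at ESC, 550.2 at EB, 364 at N1, 1037 at N2 and 2269 at N3. Signal was thus high at both ends of the culture and lowest in the neurospheres of N1, 6.98-fold below ESC. N3 lay 6.23-fold above N1 and differed from ESC by 1.12-fold.

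**Figure D1:**
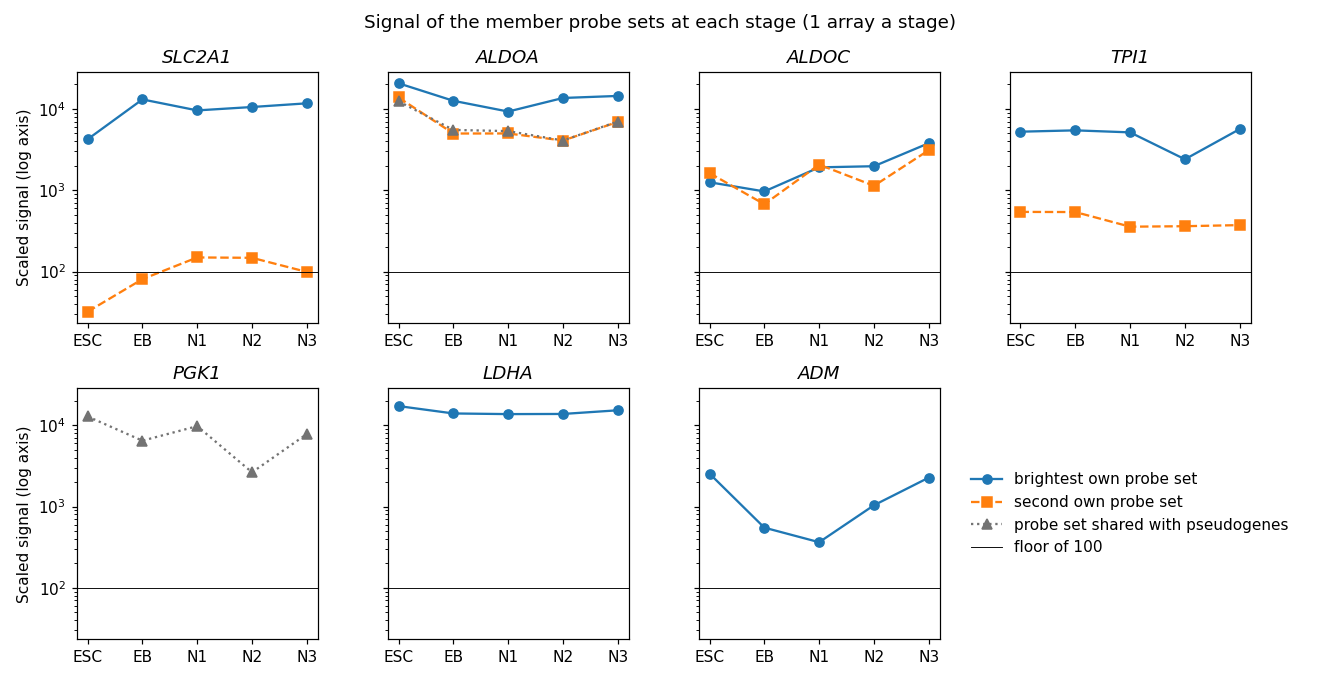
Scaled array signal (log axis) of the 12 member probe sets at the 5 stages, with 1 array a stage and therefore no error bars; circles are the brightest own probe set, squares the second and triangles probe sets shared with pseudogenes. ADM is low in the middle stages, LDHA is nearly level, SLC2A1 is lowest in ESC (4235) and ALDOC highest in N3 (3797).

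The partner genes of CALCRL, a receptor gene for adrenomedullin, did not follow ADM. CALCRL itself stayed below the floor at every stage on both of its probe sets. RAMP1, a partner protein of that receptor, was 2.93-fold higher in EB than in ESC and 4.41-fold higher in N3 than in ESC (505 in N3 and 114 in ESC). RAMP2, a partner that gives the receptor adrenomedullin specificity, was 2.68-fold higher in EB than in ESC. Its signal was 328 at ESC, 879 at EB, 525 at N1, 553 at N2 and 282 at N3. Among the listed partners of the ligands ADM and VEGFA, PGF was 7.17-fold higher in EB than in ESC. PGF had 141 at ESC, 1008 at EB, 686 at N1, 223 at N2 and 263 at N3. Of the VEGF receptor genes, FLT1, KDR and FLT4 were below the floor at all 5 stages, while the co-receptor gene NRP1 was 2.70-fold higher in N3 than in ESC on its brightest probe set and had a smaller log2 ratio, 0.61, on the second probe set that was measured.

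When stem cells had formed embryoid bodies, 1 of 6 members was at least 2-fold higher in EB (SLC2A1) and 1 lower (ADM, 4.62-fold). Among 10978 measured genes, 12.1% were at least 2-fold higher and 11.8% lower, so the members' counts were near the background. The median log2 ratio was -0.34 over the 6 members and -0.06 over all genes. When each gene was the median of its own probe sets, 0 members were higher and 2 lower, because the dim SLC2A1 probe set then counted equally and ALDOA reached 2-fold. On the second brightest probe sets, 0 of 3 measured members were higher and 2 lower (ALDOA, 2.77-fold, and ALDOC, 2.41-fold). Of 13 other measured glycolysis genes, 1 was higher and 3 lower: PFKFB3, a regulator of glycolytic rate, was 2.02-fold higher, while the hexokinase gene HK2 was 2.33-fold lower (410.0 in EB and 954 in ESC), GAPDH 2.12-fold lower and PGAM2 at least 2.36-fold lower. The pyruvate kinase gene PKM was 1.92-fold lower. The GAPDH control probe sets were lower in EB by less than 2-fold: 1.29-fold at the 3' end, 1.68-fold in the middle and 1.85-fold at the 5' end. The part of the 3' to 5' imbalance in these enzyme values was not tested. N1 against ESC, 2 arrays with GAPDH 3' to 5' ratios of 1.69 and 1.94 but actin ratios of 5.43 and 1.73, gave 1 member higher (SLC2A1, 2.27-fold) and 2 lower (ALDOA, 2.23-fold, and ADM), where 13.2% of all measured genes were higher and 11.0% lower.

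Between embryoid bodies and selected neurospheres the members' counts were near the background. In N1 against EB, 0 of 6 members were at least 2-fold higher and 0 lower, where 5.15% of 10335 genes were higher and 2.20% lower. ALDOC came closest, at 1914 in N1 and 968 in EB, a 1.98-fold difference, and its other probe set was 3.07-fold higher. When arrays were scaled on the hybridisation controls, with an all-gene median of 0.39, ALDOC passed 2-fold and the members' median was 0.18 in place of -0.26. All 12 other measured glycolysis genes stayed within 2-fold as well.

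With FGF4 added, 1 of 6 members was at least 2-fold higher in N2 than in N1 (ADM, 2.85-fold) and 1 lower (TPI1, 2.14-fold), against 5.06% higher and 6.53% lower among 10552 genes. The log2 ratio of ADM was 0.93 when scaled on the hybridisation controls, with an all-gene median of -0.58. The TPI1 difference stood on its brighter probe set alone, since the dimmer had a log2 ratio of 0.02. Of 14 other glycolysis genes, GPI, which isomerises glucose 6-phosphate, was 2.65-fold higher (log2 ratios of 0.31 and 0.02 on its other probe sets) and the phosphofructokinase gene PFKL 2.46-fold lower.

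The low N2 values of several enzyme probe sets coincided with the array's 3' to 5' imbalance. The GAPDH control probe set at the 3' end had 53036 in N2 and 37260.3 in N1, 1.42-fold higher in N2. The one in the middle had 10333 in N2 and 22742 in N1, 2.20-fold lower, and the one at the 5' end 7475 in N2 and 22009.7 in N1, 2.94-fold lower. Different stretches of the GAPDH transcript thus gave opposite directions. The probe sets of ALDOA also differed in direction: the brightest had a log2 ratio of 0.55 and the second and shared ones had -0.29 and -0.38. For ENO1, the enolase gene, the log2 ratio was 0.43 on the brightest of 4 probe sets and -0.18 and -0.97 on the next ones, and the dimmest, below the floor in N2, was at least 2.14-fold lower. Where the member probe sets lie along their transcripts is not given in the sources used here, and the part of the imbalance in the TPI1 and PGK1 values was not tested.

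**Figure D2:**
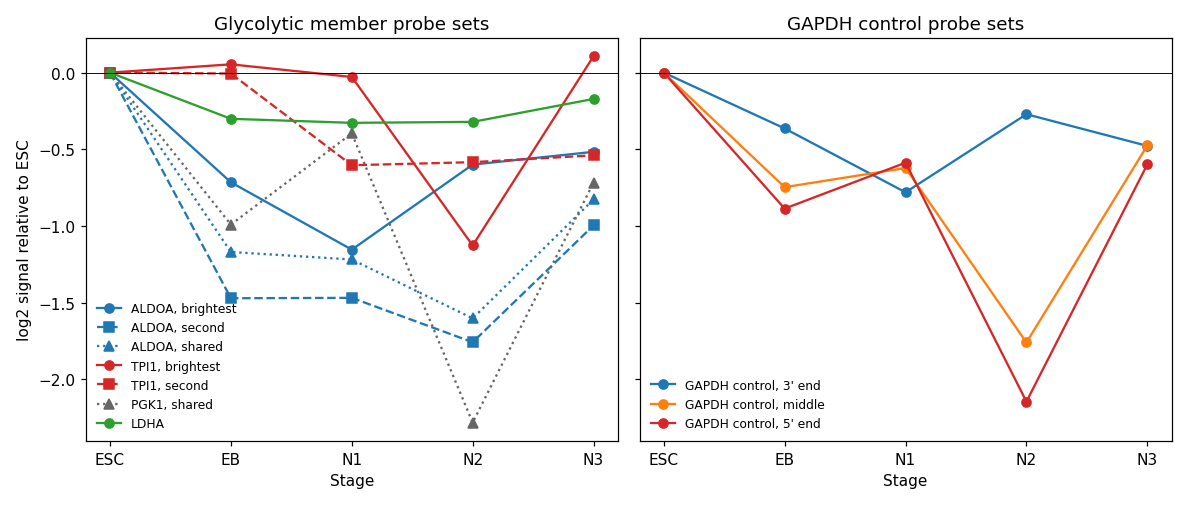
Log2 signal relative to ESC at each stage, for probe sets of the glycolytic members other than ALDOC (left) and for the GAPDH control probe sets at the 3' end, middle and 5' end of the transcript (right), with 1 array a stage. In N2 the brighter TPI1 (-1.13) and shared PGK1 (-2.28) probe sets dip as do the middle (-1.76) and 5' (-2.15) GAPDH controls. LDHA (-0.32) and the 3' control (-0.27) do not. The second and shared ALDOA probe sets are also low in N2 (-1.76 and -1.60) but already stand at -1.47 and -1.17 in EB.

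Some members had clearly higher signals in N3, matured without FGF4, than in N2. All 6 members had a positive log2 ratio, and 2 of 6 were at least 2-fold higher (TPI1, 2.35-fold, and ADM, 2.19-fold) and 0 lower. The ratios of ALDOA (0.08), LDHA (0.15) and SLC2A1 (0.15) were nearly level. They were smaller than 0.38, the median disagreement between the 2 brightest probe sets of a gene. Among 10401 genes 4.78% were higher and 2.19% lower. ALDOC was 1.92-fold higher, and the members' median was 0.55 against -0.02 for all genes. On its dimmer probe set TPI1 had a log2 ratio of 0.04. ALDOA had a log2 ratio of -0.03 with equal medians as the scaling, and SLC2A1 one of -0.21 with the median of its probe sets. Of 12 other measured glycolysis genes, 4 were at least 2-fold higher and 0 lower: PFKL (2.65-fold), PKM (2.46-fold), HK2 (2.46-fold, 1077 in N3 and 438 in N2) and GAPDH (2.24-fold). The GAPDH control probe sets differed between the same arrays, with the middle one 2.44-fold and the 5' one 2.92-fold higher in N3 and the 3' one 1.15-fold lower, and the part of this imbalance in the enzyme values was not tested. PDK1, a HIF target that restrains pyruvate entry into mitochondria, was at least 2.49-fold higher.

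N3 against N1 set side by side the 2 later arrays with the closest GAPDH ratios, 2.10 and 1.69, and actin ratios of 8.63 and 5.43. There 1 of 6 members was at least 2-fold higher (ADM) and 0 lower, where 8.42% of 10652 genes were higher and 6.67% lower. TPI1 had a log2 ratio of 0.14 and GAPDH of 0.18, so the 2-fold differences of these genes against N2 were not seen against N1. ALDOC was 1.98-fold higher, HK2 2.46-fold, GPI 3.60-fold (1.63-fold and 1.32-fold on its other probe sets), the platelet-type phosphofructokinase gene PFKP 2.28-fold and PDK1 2.45-fold. These comparisons share arrays and are not independent of each other.

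Over the whole course, N3 against ESC, 2 of 6 members were at least 2-fold higher (ALDOC, 3.02-fold, and SLC2A1, 2.77-fold) and 0 lower, against 17.2% and 16.4% of 11232 genes. The median of the 6 members was -0.03 and that of all genes -0.13. Of 14 other glycolysis genes, 2 were higher, PFKFB3 (3.79-fold) and PFKP (3.35-fold), and 0 lower. On their brightest probe sets GAPDH, ENO1, PKM and HK2 lay within 2-fold of ESC, at log2 ratios of -0.66, -0.31, -0.47 and 0.17. The neuronal enolase gene ENO2 did so too, at -0.10. Another ENO1 probe set was more than 2-fold lower (13845 in N3 and 28186 in ESC). Its remaining ones had 17966 in N3 and 22115 in ESC, and 428 in both. A second PKM probe set had 4105 in N3 and 8092 in ESC.

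**Figure D3:**
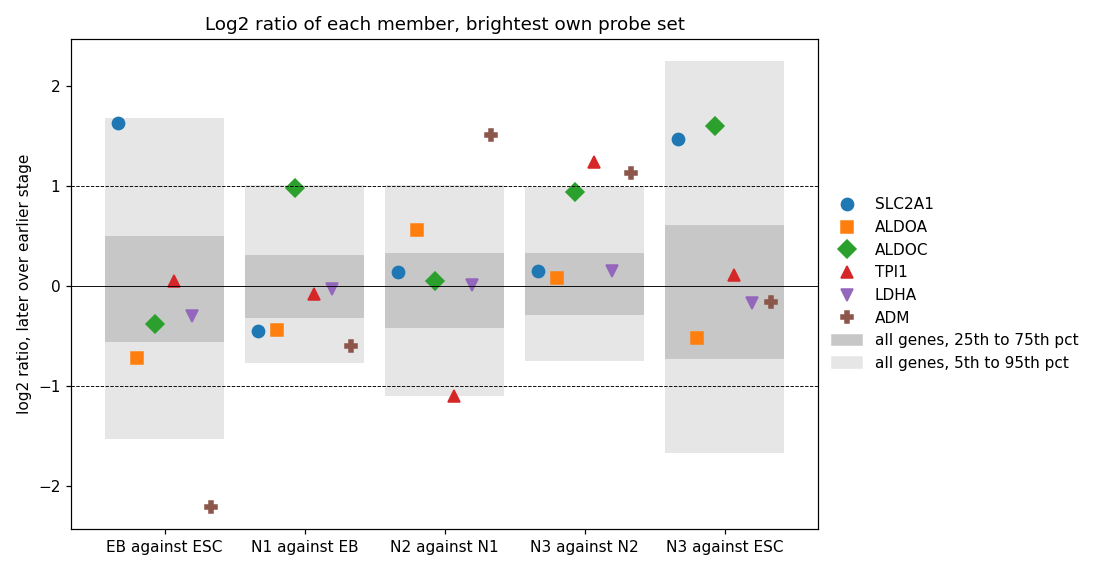
Log2 ratio of the 6 members (brightest own probe set) in each of the 5 comparisons, later over earlier stage, 1 array each; dark and light bars span the 25th to 75th and 5th to 95th percentiles of all measured genes and dashed lines mark 2-fold. In N3 against N2 all 6 members lie above 0, but ALDOA (0.08), LDHA (0.15) and SLC2A1 (0.15) only slightly. ADM lies outside the light bar in EB against ESC (-2.21), N2 against N1 (1.51) and N3 against N2 (1.13). TPI1 also lies outside it in N3 against N2 (1.23).

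Several genes of oxygen sensing were lower in stem cells than in embryoid bodies. In EB against ESC, 3 of 7 measured genes of HIF and its control (EPAS1, ARNT2 and EGLN1) were at least 2-fold higher and 0 lower, where 12.1% of all genes were higher and 11.8% lower. Of these, EPAS1 and EGLN1 each had another probe set that was lower in EB. ARNT2, a neural partner subunit of HIF, had 45.3 in ESC, 1130 in EB and 1995 in N3, at least 20.0-fold higher in N3 than in ESC. EGLN1, the prolyl hydroxylase that marks HIF for destruction when oxygen is present and is itself a HIF target, had 839 at ESC, 2337 at EB, 2613 at N1, 3361 at N2 and 3659 at N3. It was 4.36-fold higher in N3 than in ESC on that probe set, with log2 ratios of 1.00, 0.31 and -0.01 on the other measured ones. EPAS1 (HIF2A), abundant in endothelium, had 148 at ESC, 1590.1 at EB, 1867 at N1, 748 at N2 and 291 at N3, and its second probe set had a log2 ratio of -1.08 for EB against ESC. For EGLN1 the dimmest measured probe set had one of -1.25 there. The endothelial list, with all 4 markers on the array, summed to 3336 at ESC, 10954 at EB, 5872 at N1, 3293 at N2 and 1630.5 at N3. TEK made up most of the sum, with 8706 in EB and 3070 in ESC. PECAM1 (1291 in EB and 126 in ESC) and CDH5 (919 in EB and 48.9 in ESC) were also higher in EB. KDR was below the floor at every stage. The part of endothelial cells in the EPAS1 values was not tested. HIF1A, EGLN3 and the lactate dehydrogenase gene LDHB were not analysed here.

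Among other genes known to be induced by hypoxia, CA9, BHLHE40 and PDK1 were, like ADM, lower in the middle stages than in ESC, a likeness picked out after their values were seen. The list as a whole did not share it: without ADM, 4 of 15 measured genes were at least 2-fold higher and 2 lower in EB against ESC (median log2 ratio 0.78), and 7 of 16 were higher and 3 lower in N1 against ESC (median 0.58). CA9, a carbonic anhydrase used as a hypoxia marker, had 506 at ESC, 181 at EB, 246 at N1, 354 at N2 and 486 at N3. The transcription factor gene BHLHE40 had 1177 at ESC, 369 at EB, 511 at N1, 778 at N2 and 1189.9 at N3. On these probe sets both were lowest in EB and near equal in ESC and N3, but a second BHLHE40 probe set had a log2 ratio of -1.18 for N3 against ESC. PDK1 had 387 at ESC, 159 at EB, 102 at N1, 89.6 at N2 and 249 at N3.

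Many of the other hypoxia-induced genes were higher in N3 than in ESC. Of 15 other measured hypoxia-induced genes, 7 were at least 2-fold higher in N3 than in ESC and 0 lower, against the 17.2% and 16.4% of all genes, with a median log2 ratio of 0.81. DDIT4, which restrains growth signalling under stress, was 4.41-fold higher (13643 in N3 and 3096 in ESC). The collagen hydroxylase gene P4HA2 was 5.83-fold higher and the collagen crosslinking gene LOX 11.1-fold on its brightest probe set. A probe set of LOX below the floor in ESC was at least 2.56-fold higher in N3, and one below the floor in N3 was at least 1.22-fold lower. The histone demethylase gene KDM3A was 5.63-fold higher, with log2 ratios of 2.51 and -0.60 on its other probe sets, and IGFBP3 6.63-fold higher. P4HA2 and LOX also serve collagen production. Of the 4 fibroblast markers, COL1A1 (20539 in N3 and 4635 in ESC) and COL1A2 (4258 in N3 and 3312 in ESC) were higher in N3, while THY1 (2044 in N3 and 5443 in ESC) and TAGLN (7431 in N3 and 35825 in ESC) were lower, and the list summed to 34272 in N3 and 49214 in ESC. The part of matrix-forming cells in the P4HA2 and LOX values was not tested.

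**Figure D4:**
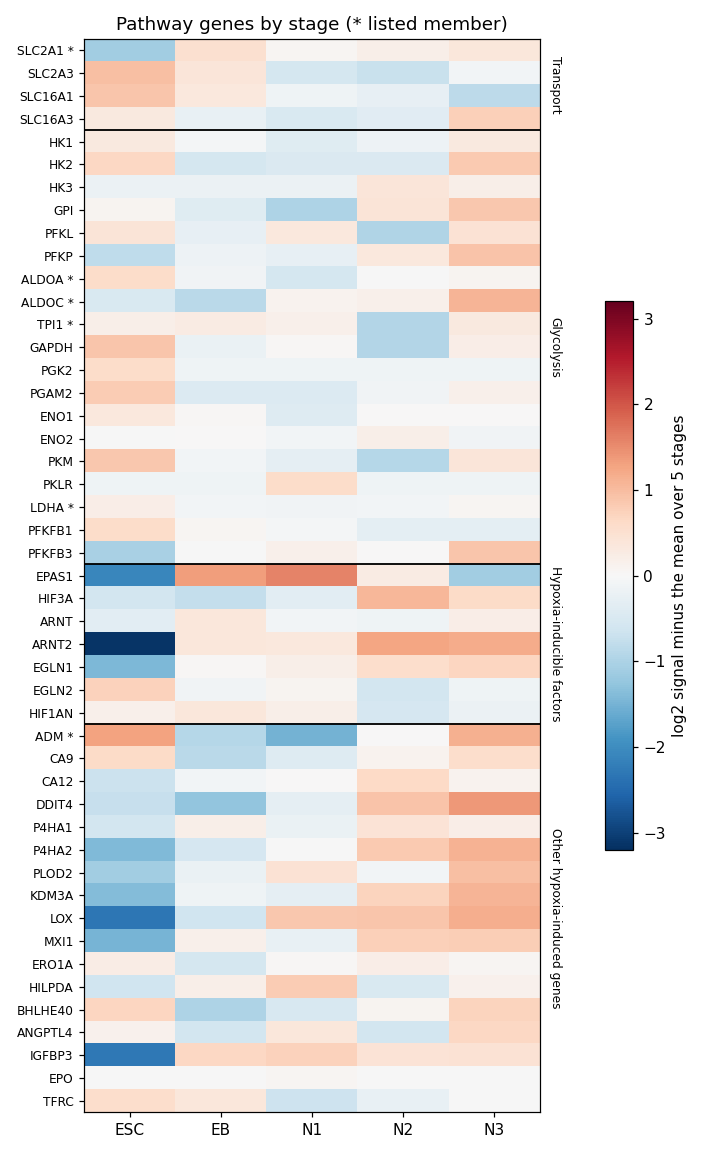
Log2 signal after the floor minus each gene's mean over the 5 stages (colour, red above and blue below the mean), for the brightest probe set of each gene of the transport, glycolysis, HIF and hypoxia-induced lists that was above the floor on at least 1 array; black lines separate the lists and asterisks mark listed members. ADM, CA9 and BHLHE40 are low in EB and N1, whereas P4HA2, KDM3A, LOX and MXI1 are lowest in ESC and highest in N3.

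The likeness of stage profiles was measured as the root mean square difference of mean-centred log2 signal over the 5 arrays, among genes above the floor at every stage. ADM had few close neighbours: the nearest was the semaphorin gene SEMA5B at 0.24, followed by the citrate synthase gene CS and REEP2, both at 0.27, and 1 of 4305 candidates lay within 0.25. ALDOC was nearest to DUSP26 (0.11), HSD11B1L (0.12) and NSD3 (0.12), with 39 candidates within 0.25. SLC2A1 was nearest to DDHD1 (0.06), CEP19 (0.06) and TRMT5 (0.08), with 196 within that distance. ALDOA was nearest to CBL (0.03), DPAGT1 (0.07) and VOPP1 (0.07), and TPI1 to CHID1 (0.11), LENG1 (0.12) and FAHD1 (0.13). LDHA was nearest to PIGT (0.02), FBXW5 (0.03) and SYNRG (0.04), and 1417 of 7824 candidates lay within 0.25 of its nearly level profile. With 5 single arrays these neighbours are a description only. The distance was not scaled to a member's log2 range, which was 2.80 for ADM and 0.33 for LDHA. The numbers within 0.25 therefore cannot be compared between members, and few neighbours do not show an unusual profile.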

How the data were processed

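The authors deposited linear-scale intensities for every probe set of 5 rhesus arrays. GCOS 1.0, Affymetrix's array software, is named per the submitters' processing notes; its algorithm, scaling target and detection calls were not given in the sources used here. The deposited 2% trimmed means were 199.1 to 199.3, so arrays had already been scaled. Arrays were brought to a 2% trimmed mean of 500 over non-control probe sets, and log2 was taken after a floor of 100 (Python 3.11.15, pandas 2.3.3, numpy 2.4.6). Where 1 array lay below the floor, the ratio is written as "at least".

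Gene names came from GEO's annotation of the platform and may be outdated. Of 52865 probe sets, 24969 had 1 symbol, 361 had several and 27535 were unlisted. Control probe sets represent no gene. No coordinates are given, since no genome build is named for the array, and no sequence was used here. With 1 array a stage there was no test, and the number of arrays limits the precision. The calculation was tested on simulated data.

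The members, 7 pathway lists (97 genes, 69 with a probe set of their own) and cell type markers were chosen with earlier results of these data known. Other pathway genes were eligible to be named when at least 2-fold apart, up to 4 per list and comparison. A fixed set was eligible whatever the value (HIF1A, EPAS1, EGLN1, EGLN3, GAPDH, ENO1, ENO2, PKM, HK2, PDK1, SLC2A3, LDHB, CA9 and DDIT4). Not every eligible gene is described. HIF3A, PDK4, PCK2, PLOD2, HILPDA, TFRC and ANGPTL4 were at least 2-fold apart in some comparison but are left out above. CALCRL, FLT1, KDR, FLT4, SLC2A2, SLC2A4 and SLC16A7, given as below the floor, were named after their values were seen, as were values of named genes in comparisons where they missed that rule. Likeness takes the 3 nearest genes of each member, with a log2 range of at least 1 where the member's own is. Alternatives were 4 other scalings, the median of probe sets, floors of 50 and 200, log2(value + 1) unfloored, no probe sets marked as binding related transcripts, and 4-fold. The second brightest probe set, shared probe sets, and comparisons that skip EB or N2 were added after seeing the data.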

Additional observations from a re-analysis of the deposited data

How the results depend on the processing

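No paired analysis was possible because each stage has 1 array. The count of members at least 2-fold apart, either way, moved with some settings. For EB against ESC it was 2, 3 with N1 in place of EB, and 1 at 4-fold. It was also 2 with the second brightest probe set, but for ALDOA and ALDOC in place of SLC2A1 and ADM. For N1 against EB it was 0, and 1 with hybridisation controls, the median of probe sets or the second brightest probe set. For N2 against N1 it was 2, 3 with shared probe sets, and 1 with hybridisation controls, the median of probe sets, no probe sets marked as binding relatives or N3 in place of N2, and 0 at 4-fold or with the second brightest probe set. For N3 against N2 it was 2, 3 with quantile normalisation, hybridisation controls or shared probe sets, and 1 without those probe sets, with the second brightest probe set or with N1 in place of N2, and 0 at 4-fold. For N3 against ESC it was 2, 1 with the median of probe sets, and 0 at 4-fold or with the second brightest probe set, which exists for 4 of 6 members. TPI1 in N2 against N1 reversed, with a log2 ratio of -1.10 on its brighter probe set and of 0.0199 once probe sets marked as binding relatives were dropped, and also 0.0199 with the second brightest, which is the same probe set. Scaling moved the share of higher among all genes past 2-fold: 50.8% for EB against ESC became 80.1% with equal medians, 70.1% for N1 against EB became 24.8% with equal medians and 94.8% with hybridisation controls, 43.7% for N2 against N1 became 54.8% and 6.83%, 68.6% for N3 against N2 became 54.7% and 87.3%, and 51.2% for N3 against ESC became 57.7% and 62.7%. The floor bears on the dimmer SLC2A1 probe set. The median disagreement between the 2 brightest probe sets of a gene was 0.66 for EB against ESC, 0.39 for N1 against EB, 0.49 for N2 against N1, 0.38 for N3 against N2 and 0.59 for N3 against ESC on the log2 scale. Of 265 values of single members under the 9 alternatives at 2-fold chosen at the outset, 244 moved by less than that disagreement, 20 by more without reversing past 2-fold, and 1 reversed. The floors of 50 and 200, the unfloored log2 and the deposited values gave 30 unmoved values each. They could hardly move any, since the brightest member probe sets had signals of 364 or more and arrays were already scaled. A small change of sign also counted as unmoved, as for LDHA in EB against ESC (-0.30, and 0.19 with equal medians). Except where a setting changes which probe set is read, the cause of the moves was not tested.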
